A study of Homo sapiens with 4 samples.

Results

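RUNX1 regions wider than 5000 bp were described in 6T-CEM cells, a human line of T-cell acute lymphoblastic leukaemia (T-ALL). Touching peaks of both RUNX1 libraries on chromosomes 1 to 22 and X were merged, and regions with a peak of each library were kept. Of 22802 such regions, 206 (0.903%) exceeded 5000 bp from end to end. These 206 regions held 1454.7 kb, or 5.60% of the 25.96 Mb under all RUNX1 regions. They were chosen by the width of the RUNX1 peaks, so their width, peak number and RUNX1 enrichment are given as a description, with no test. ETS1 peaks and gene positions were not part of the choice.

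The data are 4 CUT&Tag libraries of unperturbed 6T-CEM cells, 2 with an antibody to RUNX1 and 2 with an antibody to ETS1, each compared with IgG, a control antibody that has no specific target. In CUT&Tag an antibody tethers a transposase, which cuts and tags the DNA near the bound protein. The labels list no treatment, genotype change or other cell line, and they leave unsaid whether the pair for an antibody was made from different cultures, so the spread between libraries may be technical. A bulk library averages over cells and over gene copies of this line. After restriction to these chromosomes the RUNX1 libraries held 25356 and 24997 peaks and the ETS1 libraries 6070 and 5611. Fold enrichment is the authors' deposited ratio of antibody over IgG signal at a peak's summit, and for each library the strongest peak in a region gives the region's fold. Total reads per library are not part of the peak lists, so absolute depth is unknown. The median pileup (stacked reads or fragments) recovered at the summits was 75 and 71 in the RUNX1 libraries and 54 and 51 in the ETS1 libraries.

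RUNX1 is the DNA-binding subunit of a heterodimer with CBFB and controls the formation of blood stem cells and the development of T cells. ETS1 belongs to a family of factors that recognise a short core with GGAA, and it can bind DNA together with RUNX1. In T-ALL, RUNX1 is part of the regulatory circuit around the oncogenic factor TAL1. Both factors are known to occupy promoters and enhancers of T-cell genes.

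Wide regions reached both promoters and microRNA genes, and the sequences that bear on their description are shown first. Of the 22131 start windows of protein-coding genes in the RefSeq table used (GRCh38.p14, 250 bases before to 50 after a transcript start, covering 15811 of 19817 coding genes), 144 had their start inside a wide region. With noncoding genes included, 183 start windows lay in wide regions, and 11 of these had summits of all 4 libraries in the 250 bases before the start or within 50 bp of them. Those of NOTCH1, MZB1 and RASGRP2 are shown because RUNX1 and ETS1 peaked together there, and that of E2F2 because only ETS1 peaked there. The 250 bases before each start are written 5′ to 3′ on the strand of the gene, and capitals mark the RUNX word TGTGGT or its complement ACCACA and the ETS word CCGGAA or its complement TTCCGG.
NOTCH1, chr9:136546049-136546298, minus strand: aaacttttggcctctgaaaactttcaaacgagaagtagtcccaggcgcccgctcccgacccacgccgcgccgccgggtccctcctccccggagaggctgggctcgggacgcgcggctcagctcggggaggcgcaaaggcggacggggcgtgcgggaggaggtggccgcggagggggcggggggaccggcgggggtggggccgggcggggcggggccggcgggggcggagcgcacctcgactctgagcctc
MZB1, chr5:139389914-139390163, minus strand: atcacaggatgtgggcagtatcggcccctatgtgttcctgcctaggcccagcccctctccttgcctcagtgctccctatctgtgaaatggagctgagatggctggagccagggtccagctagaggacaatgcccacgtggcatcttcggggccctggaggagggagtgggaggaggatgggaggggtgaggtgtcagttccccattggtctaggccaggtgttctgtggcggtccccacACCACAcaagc
RASGRP2, chr11:64745349-64745598, minus strand: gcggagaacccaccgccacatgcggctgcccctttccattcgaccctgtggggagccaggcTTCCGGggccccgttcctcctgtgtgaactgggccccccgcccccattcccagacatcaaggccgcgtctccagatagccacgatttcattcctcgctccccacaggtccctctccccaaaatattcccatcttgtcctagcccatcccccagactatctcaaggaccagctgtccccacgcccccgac
E2F2, chr1:23531234-23531483, minus strand: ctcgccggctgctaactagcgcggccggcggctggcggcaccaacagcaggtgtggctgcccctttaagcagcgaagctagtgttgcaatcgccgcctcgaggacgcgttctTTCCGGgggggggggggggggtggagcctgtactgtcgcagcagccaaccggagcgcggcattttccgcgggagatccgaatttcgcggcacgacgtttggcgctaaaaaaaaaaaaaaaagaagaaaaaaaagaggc

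NOTCH1 encodes the receptor most often activated by mutation in T-ALL, and neither word was in its 250 bases although summits of all 4 libraries lay there. MZB1, a chaperone of immunoglobulin assembly in B cells, had 1 RUNX word close to its start. RASGRP2, an exchange factor that activates Rap GTPases in blood cells, had 1 ETS word. E2F2, a transcription factor of the cell division cycle, had 1 ETS word, and summits of both ETS1 libraries but of neither RUNX1 library lay there. A match to a word describes these letters only, and the absence of one says nothing about the factors.

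The miR-142 gene, whose microRNAs are abundant in blood cells, lay in a wide region that overlapped no protein-coding gene. In the 206 regions, 12 microRNA genes had tabled mature forms, 18 in all. The pair from miR-142 is shown for that region, and miR-4513 and miR-6855-3p because they were the only 2 of the 18 with a common seed. Capitals mark the seed, bases 2 to 8.
hsa-miR-142-5p: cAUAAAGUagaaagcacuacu
hsa-miR-142-3p: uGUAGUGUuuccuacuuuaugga
hsa-miR-4513: aGACUGACggcuggaggcccau
hsa-miR-6855-3p: aGACUGACcuucaaccccacag

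The 206 regions ranged from 5004 to 22450 bp, with a median of 6304 bp, against 864 bp for the other 22596 RUNX1 regions. They thinned out quickly with width: 86 were up to 6000 bp, 73 lay between 6000 and 8000 bp, 27 between 8000 and 10000 bp, and 20 exceeded 10000 bp. Most were unbroken in the peak lists rather than chains of peaks. A region was a single peak in RUNX1 library 1 in 171 cases and in library 2 in 142 cases, and in both libraries in 118. At most 3 peaks (library 1) and 4 peaks (library 2) shared a region, and the 206 regions together held 243 and 283 peaks. In 138 regions a single peak exceeded 5000 bp in each library, in 59 it did so in only 1 library, and in 9 in neither, where the width came from joining peaks. In a typical region the peaks of library 1 covered 99.6% of the bases and those of library 2 covered 97.7% (medians).

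Just above the threshold lay the regions at ABCA2 and FUT7 (5004 bp, RUNX1 folds of 12.5 and 12.1 in libraries 1 and 2), at CD82 (5006 bp, 52.4 and 52.7) and in GSE1 (5025 bp, 12.05 and 10.2). Just below it lay a region of 4990 bp on chromosome 14 that overlapped no coding gene (134.7 and 128.9), one of 4995 bp at STMN3 (45.0 and 39.6) and one of 4997 bp at ACTG1 and FSCN2 (10.7 and 10.6). Fold varied widely on both sides of the threshold.

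RUNX1 enrichment in the wide regions had a median of 38.2-fold in library 1 and 38.3-fold in library 2, against 8.16-fold and 8.12-fold in the other regions. Both libraries ranked the wide regions almost alike (Spearman's rho of 0.982 over 206 regions, as a description). Mean folds ran from 6.67 to 191, and 39 of the wide regions stayed below 20. Width and fold were only loosely related among the 206, which were chosen by width (rho of 0.18). Over all RUNX1 regions the rho was 0.516. The wide region with the highest mean fold, 9993 bp inside UNC5A, a netrin receptor gene, had folds of 227 and 155 in libraries 1 and 2. Its summit pileups were 1289 and 1171 and its IgG expectations 4.68 and 6.55. Over the 206 regions the median summit pileup was 438.5, against 79 elsewhere, while the IgG expectation was similar, with medians of 9.94 in wide and 9.07 in other regions.

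**Figure D1:**
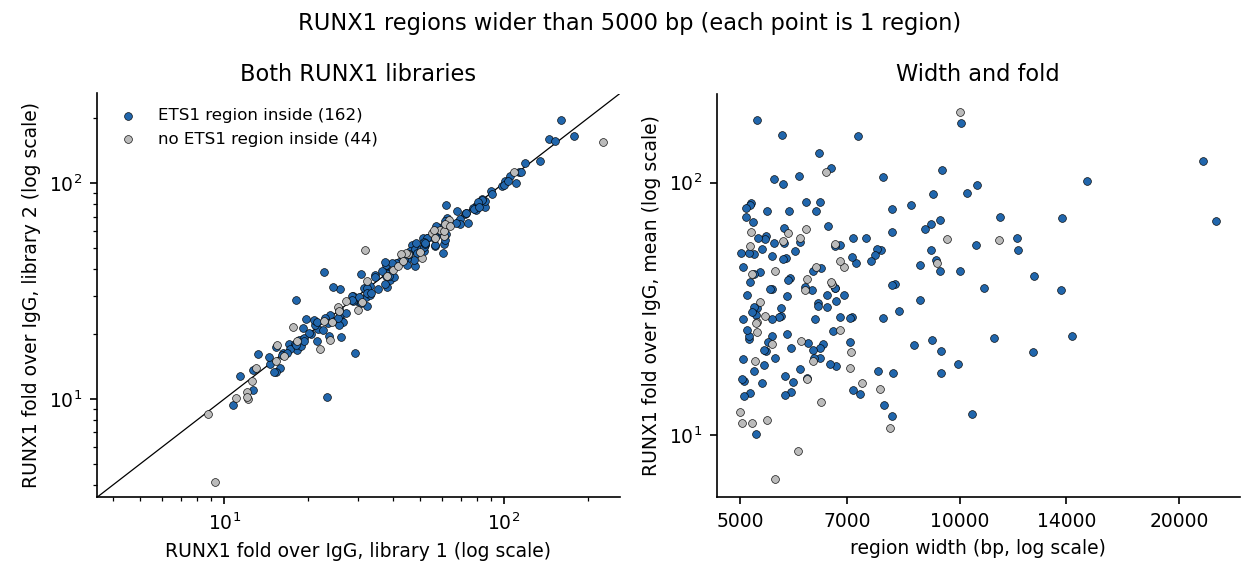
Left, RUNX1 fold over IgG of the 206 wide regions in library 1 (x) and library 2 (y), both on log scales, with the line of equality. Right, width (x, bp) against the mean fold of both libraries (y), on log scales. Blue points (162) hold an ETS1 region of both libraries and grey points (44) do not. The points follow the line on the left, and on the right regions close to 5000 bp span nearly the whole range of fold.

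The widest region, 22450 bp at chr9:137445266-137467715, covered the whole of NSMF, a gene of neuronal signalling to the nucleus, and an end of PNPLA7, a lysophospholipase. RUNX1 fold there was 62.2 in library 1, where it was 1 peak, and 78.8 in library 2, where it was split into 4 peaks. The next, 21561 bp, lay inside PLEC, which encodes the cytoskeletal linker plectin, with RUNX1 folds of 119 and 124. KDM4B, a histone demethylase gene, held 14942 bp inside it, with folds of 101 and 102. All 3 also carried ETS1, but to different extents: ETS1 regions covered 3.99% of the bases at NSMF, 29.3% in PLEC and 10.6% in KDM4B.

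The other 9 of the 12 widest regions lay at KLF16, a zinc-finger factor (14257 bp), inside GSE1, which encodes a coiled-coil protein (13827 bp), inside BAHCC1, a chromatin reader (13783 bp), over KIF22, MAZ, PRRT2 and PAGR1 (12637 bp), at MAFG and PYCR1 (12610 bp), inside NOTCH1 (12032 bp), inside BAIAP2, an actin regulator (11997 bp), at TMC6 and TMC8 (11369 bp) and inside AMZ1, a metallopeptidase gene (11333 bp). Their RUNX1 folds ran from 21.1 at MAFG in library 2 to 73.2 at TMC6 in library 1. KLF16 was among the weaker of them, with 26.2 and 23.2. AMZ1 had an ETS1 peak in library 1 only (5.42-fold), and the other 11 of the 12 widest held an ETS1 region.

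At the other extreme, the weakest region in RUNX1 enrichment, 5579 bp inside ZBTB7B, had folds of 9.23 in library 1 and 4.12 in library 2. Close to SKI, a repressor of TGF-beta signalling, a region of 5995 bp had 8.75 and 8.52. RCOR2 (10.7 and 9.42), C20orf204 (11.1 and 10.1) and KIF21B (12.2 and 10.03) followed. These 5 show that regions of modest fold also extended over more than 5000 bp, and of them only the RCOR2 region held an ETS1 region. Their summit pileups ran from 76 at RCOR2 in library 2 to 193 at C20orf204 in library 1. The median pileup was 438.5 in wide and 79 in other RUNX1 regions. In the ZBTB7B region the pileups were 95 and 84 and the IgG expectations 9.40 and 19.7 in libraries 1 and 2.

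Wide regions lay at gene ends more often than other RUNX1 regions did. A region was placed at a gene end if an outermost base of a protein-coding gene lay inside it or up to 1000 bp away. That held for 111 of 206 wide regions (53.9%), against 8568 of 22596 others (37.9%). A further 71 (34.5%) lay wholly inside a coding gene, against 36.1% of the others, and 24 (11.7%) lay outside coding genes, against 26.0%. A wide region has more room to meet a gene end, and per base the order was the other way round: 12.6 gene ends per 100 kb of wide regions, against 33.9 per 100 kb of the others. The wider of the other regions came close to the wide ones in this share. It was 46.2% from 4000 to 5000 bp and 49.9% from 3000 to 4000 bp. From 2000 to 3000 bp it was 47.7%, and from 1000 to 2000 bp 46.7%. Only narrower regions were lower, with 35.6% from 500 to 1000 bp and 21.9% up to 500 bp. No test was made of these shares.

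In all, 173 of 19817 protein-coding genes (0.873%) had a wide region at an end, against 9344 (47.2%) with any RUNX1 region there. With genes that held a wide region wholly inside, the count was 234 (1.18%). The wide regions overlapped 228 coding genes: 128 regions overlapped 1 gene, 38 overlapped 2, 11 overlapped 3, 2 overlapped 4 and 27 overlapped none. In 19 regions at least 1 coding gene was covered from end to end, 22 genes in all. A long noncoding RNA gene was touched by 55 regions and a microRNA gene by 11, and 15 regions held no annotated gene of any kind.

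In 5 regions 5 or more coding gene ends lay inside or up to 1000 bp away. The region over KIF22 (a kinesin), MAZ (a zinc-finger factor), PRRT2 and PAGR1 (a partner of histone methyltransferases) held 6 gene ends, as did that over METRN, ANTKMT, CCDC78 and HAGHL. RPS6KB2, CORO1B and PTPRCAP, the last a partner of the T-cell phosphatase CD45, shared a region with 5 gene ends. ZGPAT, LIME1 and SLC2A4RG shared another with 5, of which LIME1 is an adaptor of the kinase LCK, and so did ZNRD2, FAM89B and EHBP1L1. Their RUNX1 folds were 42.2 and 43.0 at MAZ, 56.6 and 51.9 at METRN, 30.8 and 37.7 at PTPRCAP, 19.1 and 19.0 at LIME1 and 25.9 and 32.5 at FAM89B.

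In wide regions with a tabled gene start, the strongest RUNX1 summit was often far from that start. A coding start was tabled inside 88 of the 204 wide regions on chromosomes with tabled starts (43.1%), against 30.0% of the other regions. In 74 of the 88, all tabled starts belonged to 1 gene. Starts were tabled for 15811 of 19817 coding genes, so untabled starts of other genes may lie in these regions too. For example, the regions of CORO1B and EHBP1L1 also wholly covered PTPRCAP and FAM89B, whose starts were not counted. The 74 regions reached a median of 2995 bp upstream and 3372.5 bp downstream, with no preferred side: 37 of 74 reached further downstream. The strongest summit of library 1 lay a median of 1402.5 bp from the nearest tabled start, against 130 bp in the other regions with tabled starts of 1 gene. Only 25 of 74 summits (33.8%) lay within 500 bp of a tabled start, against 92.4% of the others, and a wide region leaves more room for such a distance. Of all summits in these 74 regions, 28.4% and 26.9% of the RUNX1 summits and 26.97% and 27.97% of the ETS1 summits were within 500 bp of the start (libraries 1 and 2 of each), so the values of the antibodies overlapped. Where a gene had several starts, the start nearest the strongest RUNX1 summit of library 1 was used for both antibodies.

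In E2F2 the strongest summit was further from the tabled start than in any other of the 74 regions. Its region began 517 bp upstream of the start and ran 6909 bp into the gene, with that summit 6215 bp downstream. LYL1, a basic helix-loop-helix factor activated in some T-ALL, had its strongest RUNX1 summit 2506 bp downstream of the start. At NOTCH1 the summit stood at -193 bp from the start, and at MZB1 it stood at -43 bp.

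**Figure D2:**
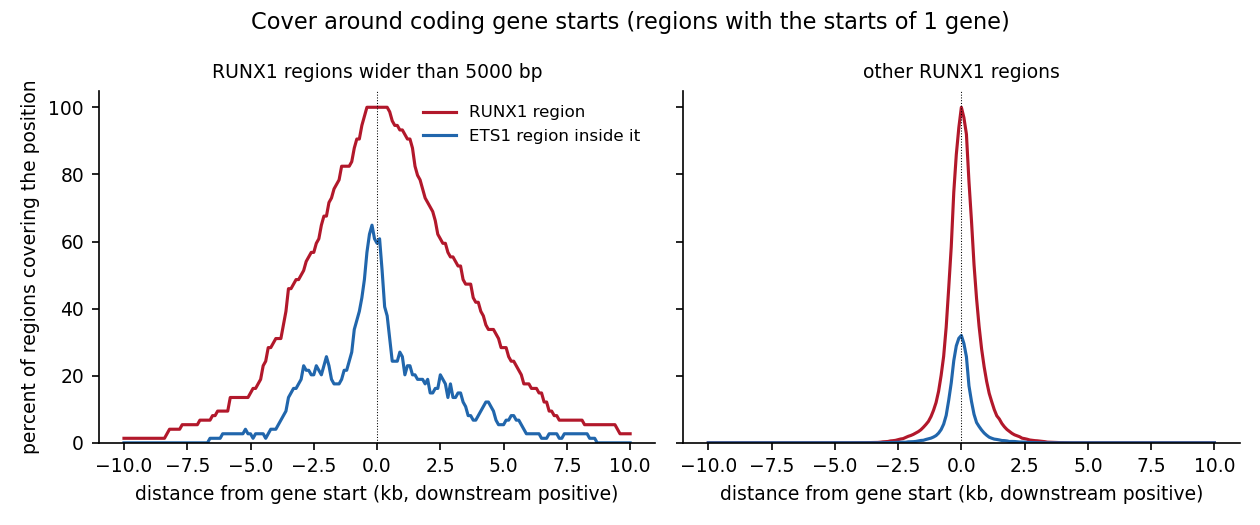
Percent of regions (y) whose RUNX1 region (red) or an ETS1 region inside it (blue) covers a position. Positions are distances from a coding start (x, kb, downstream positive), taken as the start nearest the strongest RUNX1 summit of library 1. Shown are the 74 wide regions with tabled starts of 1 gene (left) and the 5775 others (right). At -3000 bp, upstream of the start, 50% of wide regions still carried RUNX1, against 0.346% of the others. ETS1 cover at the start itself was 59.5% in wide regions and 32% in the others. In wide regions it was highest at -200 bp (64.9%), and it was 27.03% at -1000 bp and 25.7% at 1000 bp.

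In sequence, start windows in wide regions held the RUNX word in 14 of 144 cases (9.72%), against 9.56% of 8862 windows in other RUNX1 regions, 12.5% of 13125 windows in none and 11.3% of all. The ETS word stood in 25 of the 144 (17.4%), against 31.9% in other RUNX1 regions, 13.9% in none and 21.2% of all. The words were searched on both strands over the 300-base window. The ETS word and its complement can overlap by 4 letters, and an ETS and a RUNX word by 1, so windows with a word were counted, not matches. Windows with GC-rich sequence were common to both kinds of region, with a median GC content of 69.7% in wide and 67.0% in other RUNX1 regions, against 57.3% where no RUNX1 region lay.

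ETS1 was present in most wide regions. An ETS1 region, defined like a RUNX1 region from both ETS1 libraries, overlapped 162 of the 206 (78.6%) by at least 1 bp, against 4529 of 22596 others (20.04%) and 20.6% of all RUNX1 regions. By library, 84.5% and 81.1% of the wide regions held an ETS1 peak (82.8% ± 2.40, SD, n = 2), against 23.6% and 22.0% of the others (22.8% ± 1.19, SD, n = 2). The gap between the kinds of region was many times the spread between ETS1 libraries, a spread that shows only how alike their calls were. No test was made of the gap, since an exact paired test over 2 libraries cannot go below p = 0.5.

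Width alone gives a region more room for ETS1. Wide regions had 20.2 ETS1 regions per 100 kb and the others 19.0, where an overlap of 1 bp was enough to count. The share of bases under ETS1 differed more. ETS1 regions covered 24.5% of wide bases (24.8% and 22.2% by library), against 14.7% of the bases of the others, and an ETS1 region that overlapped a wide region was itself wider, with a median of 955.5 bp against 675 bp for those that overlapped other RUNX1 regions. The strongest ETS1 peak had a median fold of 7.46 in wide regions that held one, against 5.86 in others that held one, and a wide region offers more peaks from which the strongest is taken. The 3 ETS1 regions above 5000 bp, up to 5770 bp, all overlapped wide RUNX1 regions.

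The share with ETS1 followed width along the whole range. It was 78.6% above 5000 bp, 63.5% from 4000 to 5000 bp, 59.1% from 3000 to 4000 bp, 47.0% from 2000 to 3000 bp, 31.7% from 1000 to 2000 bp, 11.4% from 500 to 1000 bp and 2.06% up to 500 bp. The number of ETS1 regions per 100 kb changed little above 1000 bp, between 18.7 and 23.1. RUNX1 fold followed width too, with a median of 38.2 in the widest class and 5.75 in the narrowest. Within bands of RUNX1 fold the wide regions still held ETS1 more often: 64.1% against 15.7% below 20-fold, 84.3% against 45.0% from 20 to 40, 77.0% against 59.1% from 40 to 80 and 91.3% against 66.7% above 80-fold. By share of bases under ETS1, which takes room into account, wide regions and others were closer: 18.6% against 11.9% below 20-fold, 25.99% against 23.7% from 20 to 40, 24.01% against 25.4% from 40 to 80 and 30.2% against 23.8% above 80-fold. From 40 to 80-fold the order was thus the other way round, and in every band the gap was smaller than over all regions. The part that width and fold each had in these shares was not tested.

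**Figure D3:**
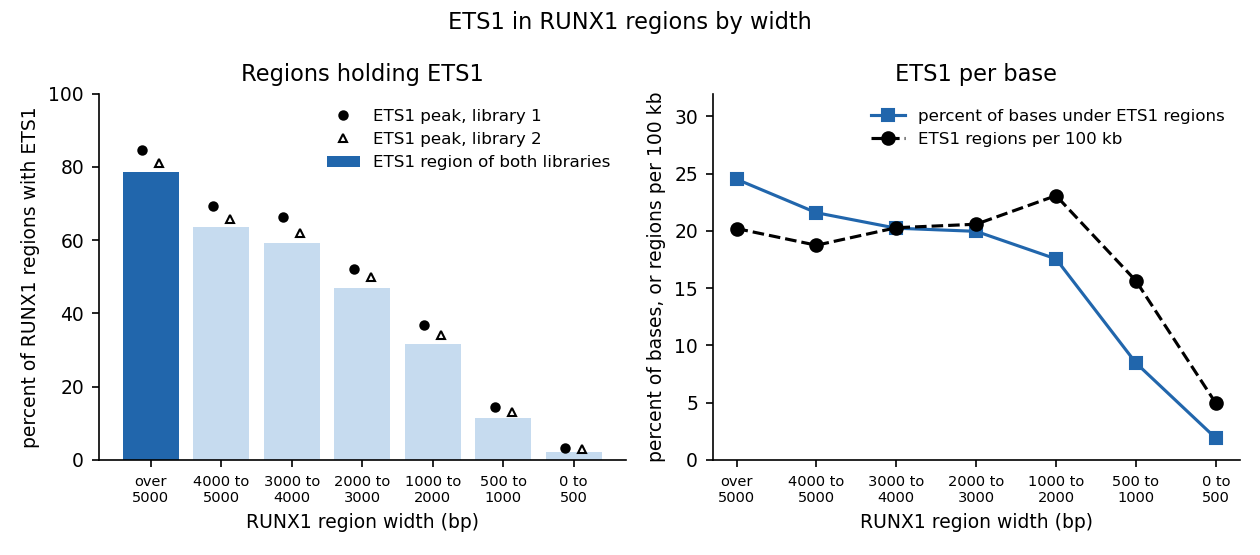
ETS1 in RUNX1 regions by width class (x, bp, widest on the left). Left, bars give the percent of regions that hold an ETS1 region of both libraries, and points the percent with a peak of ETS1 library 1 or 2. Right, percent of bases under ETS1 regions (squares) and ETS1 regions per 100 kb (circles). The share in the left panel declines at each step, while the circles stay between 18.7 and 23.1 down to the class of 1000 to 2000 bp.

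Among the wide regions, 73 held 1 ETS1 region, 55 held 2, 26 held 3, 7 held 4 and 1 held 5, so 89 (43.2%) held several, against 132 of the others (0.584%). The region with 5 was that over KIF22 and MAZ. ETS1 cover was greatest at BRD2, a bromodomain protein gene, where it took 90.0% of 5103 bp, and a median wide region was covered for 20.4% of its length. Only 33 regions were covered for 50% or more. In the 162 regions with ETS1, the strongest RUNX1 and ETS1 summits were a median of 109 bp apart in library 1 and 82 bp in library 2, whereas the strongest RUNX1 summits of both libraries were a median of 1 bp apart. In 59.3% of these regions in library 1 and 69.1% in library 2 the pair of strongest summits lay within 200 bp.

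The share of wide regions with ETS1 was highest at gene ends and lowest inside genes. ETS1 was in 96 of the 111 at gene ends (86.5%, against 34.7% of other gene-end regions), in 46 of the 71 inside genes (64.8%, against 11.3%) and in 20 of the 24 outside genes (83.3%, against 10.8%).

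The highest ETS1 enrichment stood apart from the rest. A region of 7262 bp at chr3:198098745-198106006, with no annotated gene and 55025 bp from the nearest end of a coding gene (LMLN), had ETS1 folds of 74.7 and 70.7 and RUNX1 folds of 146 and 160. The IgG expectation there was 1.76 and 1.67 in the RUNX1 libraries, well below the median of 9.94. Its RUNX1 summit pileups were 401 and 427, beside a median of 438.5 in wide regions. The region lay 0.125 Mb from the chromosome end. The part of the low IgG value in these folds was not tested. Next came ARHGEF2, an activator of the GTPase RHOA, with ETS1 folds of 21.7 and 23.2, and MOB3A, with 20.1 and 18.2. The region over MAZ (19.5 and 18.7), PCBP3 (19.9 and 18.0), the region at the ends of STAT5A and STAT3 (18.6 and 19.3), CSK, a kinase that restrains Src-family kinases (17.7 and 18.8), the region of CD72 and SIT1, an inhibitory adaptor of T-cell receptor signalling (15.2 and 17.9), RARA, the retinoic acid receptor alpha gene (14.02 and 15.8), and the miR-142 region (13.98 and 14.4) completed the 10 highest. The ranking by mean fold required peaks of both ETS1 libraries.

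In 29 of the 206 regions (14.1%) neither ETS1 library had a peak, against 74.5% of the other RUNX1 regions. The widest of them lay inside SLC5A10 and FAM83G (9613 bp, RUNX1 folds of 58.9 and 60.5), inside RXRA, the retinoid X receptor alpha gene (9319 bp, 51.0 and 45.1), and inside BAHCC1 (7341 bp, 16.3 and 15.8). MACROD1 with FLRT1 (25.6 and 26.6), a region outside genes on chromosome 6 (108.6 and 112.4), AHDC1 (13.03 and 13.9), TK2, the mitochondrial thymidine kinase (44.8 and 47.6), and RTEL1 with TNFRSF6B (42.0 and 41.3) were the other 5 of the 8 widest. RUNX1 folds in these 8 ran from 13.03 at AHDC1 to 112.4 in the chromosome 6 region.

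The position of summits was compared between antibodies inside the wide regions. Of the RUNX1 summits there, 51 of 243 (21.0%) and 60 of 283 (21.2%) lay within 1000 bp of a coding gene end. Of the ETS1 summits there, 90 of 340 (26.5%) and 85 of 318 (26.7%) did. The means were 21.1% ± 0.151 for RUNX1 and 26.6% ± 0.183 for ETS1 (SD, n = 2 each), a difference, RUNX1 minus ETS1, of -5.51 percentage points (-2.84 with a window of 500 bp). The groups did not overlap. Permuting the 4 libraries in an exact two-sided test gave p = 0.333. That is the smallest p that this design allows, so the test cannot decide whether the antibodies differ. The RUNX1 summits belong to the peaks whose width chose the regions and the ETS1 summits do not, so the antibodies were not compared on equal terms. The RUNX1 and ETS1 shares were both below those of all peaks, 33.0% and 32.7% for RUNX1 and 56.0% and 57.1% for ETS1.

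Some wide regions stood side by side. Another wide region lay within 50 kb of 56 of the 206, and most had none that close. The same count was not made for other RUNX1 regions. GSE1 held 5 wide regions, BAHCC1 4 and NOTCH1 3, and 8 further genes held 2 each. At BAHCC1, 5 wide regions stood in 80.2 kb on chromosome 17, and wide RUNX1 regions filled 59.1% of that span. The 4 regions in BAHCC1 differed widely in mean fold, from 16.1 to 172. CBFA2T3, a corepressor gene of the ETO family, had 3 wide regions in and near it within 57.4 kb, and CSK had 2 within 11.2 kb.

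NOTCH1 had 3 wide regions in the gene or at its start, and another stood upstream of it. The region at the start, chr9:136543830-136549596, had the lowest RUNX1 folds, 15.3 and 13.3. The region of 12032 bp from 8.84 to 20.9 kb downstream of the start had 56.8 and 51.4, and the one of 5437 bp from 37.5 to 43.0 kb downstream had 78.0 and 75.9. The upstream region, 6444 bp from -44.9 to -38.5 kb relative to the start, had 47.8 and 43.8. The folds of the 4 regions did not overlap. ETS1 folds were 7.33 and 6.36 at the start, 6.97 and 6.56 in the 12032 bp region, 14.2 and 12.7 in the one furthest downstream and 7.05 and 7.48 in the upstream region.

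**Figure D4:**
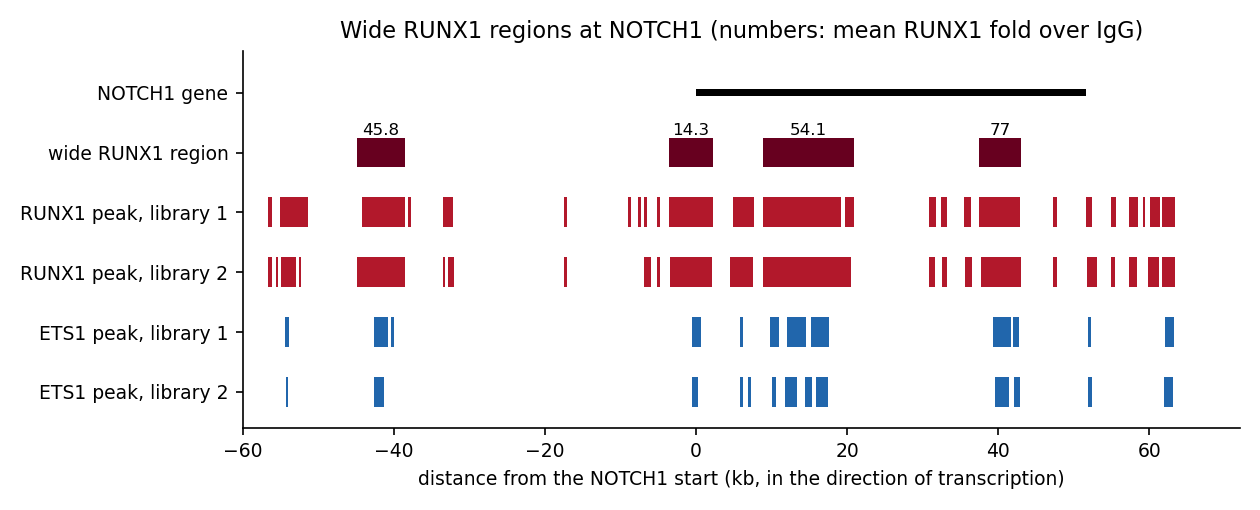
Wide RUNX1 regions (dark red, with their mean RUNX1 fold), RUNX1 peaks (red) and ETS1 peaks (blue) of each library around NOTCH1 (black), by distance from its start (x, kb, in the direction of transcription). By the merging rule the 4 wide regions have peaks of both RUNX1 libraries. Each also contains ETS1 peaks of both ETS1 libraries.

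The miR-142 region, chr17:58330676-58340082, was 9407 bp wide and reached 8764 bp upstream of the first base of the hairpin and 642 bp downstream. It was 1 peak in each RUNX1 library, with folds of 43.2 and 46.3, and its summits lay 1788 and 1898 bp upstream. Each ETS1 library had 4 peaks there. The strongest, 13.98-fold and 14.4-fold, had summits 1790 and 1829 bp upstream, beside the RUNX1 summits, and the other 3 lay at about the same bases in both libraries, at 4810 and 4808, 6987 and 6987, and 7933 and 7934 bp upstream. ETS1 regions covered 69.8% of the region.

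Of 289 genes in 14 lists of T-cell, general and other cell-type genes, 14 had a wide region at an end or inside, beside 1.18% of all coding genes. All 14 were among the 233 genes of the 10 T-cell and general lists. Any RUNX1 region at an end was found for 178 of these 233, beside 47.2% of all coding genes. None was among the 56 genes of the B-lineage, myeloid, erythroid and non-blood lists, of which 15 had any RUNX1 region at an end. At the share of all coding genes, fewer than 1 of the 56 would be counted, so this 0 is no result about those lists. None of 34 T-cell receptor signalling genes had a wide region, and 24 of them (70.6%) had a RUNX1 region at an end, and at the share of all coding genes fewer than 1 would be counted there too. The lists were chosen with results of these data known, so the counts are a description.

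Among transcription factors, LYL1 and ZBTB7B, a factor that fixes the CD4 T-cell fate, were 2 of 37. The LYL1 region (8072 bp, RUNX1 folds of 79.5 and 77.9) carried 3 ETS1 regions over 65.9% of its bases, while at ZBTB7B (9278 bp, 46.9 and 51.9) 2 ETS1 regions took 14.4%. NOTCH1 was the only 1 of 18 Notch pathway genes. STAT3 and STAT5A, signal transducers of cytokine receptors, shared a region of 6419 bp at the ends of both genes, with RUNX1 folds of 135 and 126, and were 2 of 25 cytokine and survival genes. Pileups at that summit were 1810 and 1616, so this was also a deeply covered region.

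CCND3, a D-type cyclin needed for the expansion of T-cell precursors, had RUNX1 folds of 49.0 and 47.4 and ETS1 over 72.3% of 7207 bp. E2F2 had folds of 58.1 and 62.1, and both were 2 of 22 cell cycle genes. The immediate early gene IER2 was covered by ETS1 over 80.1% of 7548 bp (RUNX1 folds of 48.1 and 49.4), and DUSP2, a phosphatase of MAP kinases, over 41.8% of 5695 bp (32.3 and 26.8). ITGB2, the beta chain of leukocyte integrins, had an ETS1 peak in library 1 only (3.46-fold), with RUNX1 folds of 15.3 and 15.0. CORO1A, an actin regulator of T cells, held 3 ETS1 regions of 4.71 and 4.59-fold at most, with RUNX1 folds of 21.5 and 22.8.

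ADA and RPS9 were also among the listed genes. ADA, an enzyme of purine breakdown, held its region inside the gene (RUNX1 folds of 51.8 and 53.1, ETS1 folds of 9.44 and 8.85). RPS9, a ribosomal protein gene, had 51.7 and 50.6 for RUNX1 and 5.11 and 6.48 for ETS1.

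The wide regions were unevenly spread over the chromosomes. Chromosome 17 held 30 of them (14.6%, against 8.02% of all RUNX1 regions), chromosome 19 held 27 (13.1%, against 7.98%), chromosome 16 held 19 (9.22%, against 5.54%) and chromosomes 20 and 11 held 17 each (8.25%, against 3.89% and 5.14%). Chromosome 9 held 13 (6.31%, against 4.44%) and chromosome 22 held 12 (5.83%, against 4.06%). Chromosome 1 held 14 (6.80%, against 9.78%). Chromosomes 13, 18 and X held none, of 391, 288 and 435 RUNX1 regions. These shares are a description, and the copy number of the chromosomes in this line was not measured here.

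**Figure D5:**
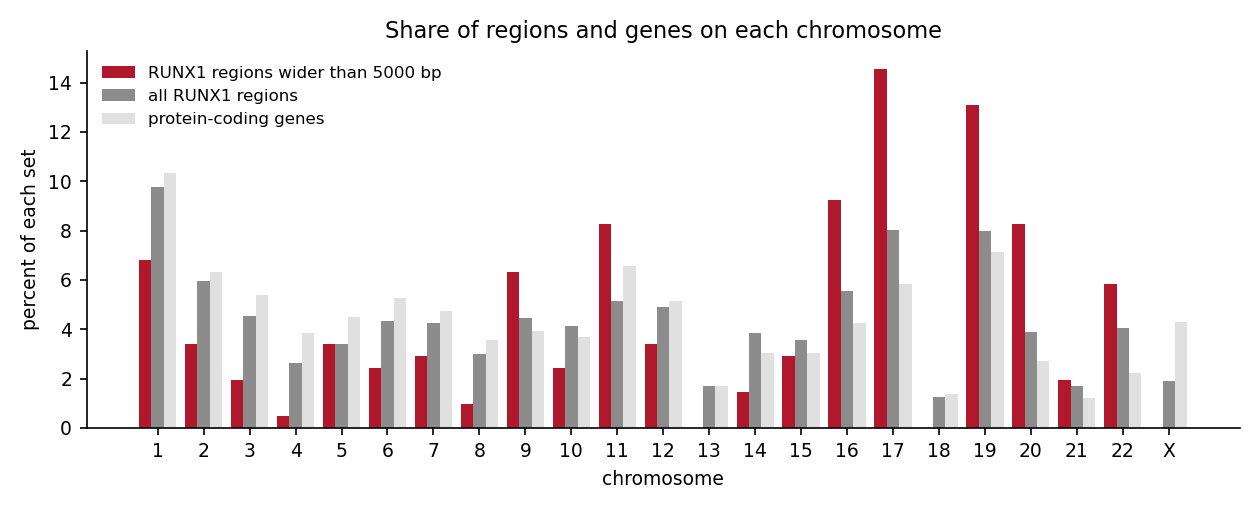
Percent of wide RUNX1 regions (red), of all RUNX1 regions (dark grey) and of protein-coding genes (light grey) on each chromosome (x). The red bar exceeds the dark grey bar most on chromosomes 17, 19, 20 and 16, and it is absent on chromosomes 13, 18 and X.

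Wide regions were also close to chromosome ends, taken as the first base and the last annotated gene base. Within 5 Mb of an end lay 106 of them (51.5%), against 21.6% of the other RUNX1 regions, and within 2 Mb lay 73 (35.4%), against 11.9%. The share within 5 Mb was 44.7% in regions from 4000 to 5000 bp and 16.7% in those up to 500 bp. The 106 near an end and the 100 further away were alike in median RUNX1 fold (39.2 and 38.0), median IgG expectation (9.43 and 10.3), gene-end share (53.8% and 54.0%) and share with an ETS1 region (76.4% and 81.0%), so the ETS1 share was as large away from the chromosome ends.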

How the data were processed

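CUT&Tag of 6T-CEM cells gave 2 libraries for RUNX1 and 2 for ETS1, made with a commercial transposase kit, per the labels. The submitters' processing notes name bcl2fastq 2.17, Bowtie2 and MACS3 3.0.0a6, and the build hg38. Each library has a list of its own against IgG, per the labels. For mapping filters, duplicates and the threshold of the calls, the settings were not given in the sources used here. In the lists that the authors deposited, −log10 q was at least 5.00 to 5.03. The authors' deposited lists give for each peak the fold over IgG (a ratio), −log10 p, −log10 q, a score (not used further) and the summit. Width depends on that threshold and on how the caller joins signal.

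From fold and −log10 p, the summit pileup and the IgG expectation were solved in whole numbers within 0.01 of −log10 p, or 5e-05 of its value where larger. This worked for 99.6% to 99.8% of peaks and was tested on simulated data. Gene positions came from RefSeq (GRCh38.p14, 19817 coding genes), which gives both outermost ends but no strand. Starts and sequences came from RefSeq promoter and microRNA tables, and starts on chromosome 8 were not used here. Named regions are the 12 widest, the 10 highest in ETS1 fold, the 8 widest without ETS1, the 5 with most gene ends inside or up to 1000 bp away, the 5 lowest in RUNX1 fold, the 3 on either side of the threshold, and list genes, of which 1 is not reported here. Other named regions, such as miR-142, MZB1, RASGRP2, BRD2 and the upstream NOTCH1 region, were picked after their values were seen. Members, lists and rules were chosen with earlier results of these data known. Python 3.11.15, pandas 2.3.3 and scipy 1.17.1 were used. Alternatives tried were other width thresholds, stricter peaks, other merging and gene-end windows, and each library left out.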

Additional observations from a re-analysis of the deposited data

How the results depend on the processing

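The number of wide RUNX1 regions, 206, was 414 above 4000 bp, 120 above 6000 bp and 316 when peaks within 500 bp were joined, and 156 to 182 from a single library. Restricted to peaks whose −log10 q reached 20, it was again 206. The share with an ETS1 region, 78.6%, was 85.9% with a peak of either ETS1 library, 54.9% with ETS1 peaks of −log10 q of at least 20, 71.0% above 4000 bp, and 84.6% to 86.3% from 1 library of each antibody. In the 100 regions over 5 Mb from a chromosome end, an alternative added after seeing the data, it was 81.0%. ETS1 regions covered 16.4% of wide bases with the stricter ETS1 peaks, against 24.5%, and 25.1% to 26.7% from 1 library of each. The gene-end share, 53.9%, was 49.5% with the end itself inside, 57.3% with a window of 2000 bp, 67.0% with genes of every kind and 50% above 4000 bp. The causes of these shifts were not tested. The difference in gene-end share of summits, RUNX1 minus ETS1, was -5.51 points. It was -2.84 with a window of 500 bp and -6.05 with 2000 bp, and -5.64 to -5.38 with a library left out. Replicate numbers are shared between the antibodies. With the replicate block (paired libraries, exact sign-flip test) the difference was again -5.51, with p = 0.5, the smallest that 2 pairs allow. Log2 fold changes between libraries 1 and 2 correlated at 0.024 between antibodies over 4701 regions. This value cannot tell whether libraries of equal number share a culture or batch. Library depth is unknown, so weak ETS1 peaks may be missed at different rates.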
